A study of Homo sapiens with 6 samples.

Results

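TRIM proteins are a large family of ubiquitin ligases and adaptors built from a RING finger, B-box zinc fingers and a coiled coil, followed by an end that sets the subgroup. The RING finger brings in a ubiquitin-conjugating enzyme, and the end, most often a PRY-SPRY domain, usually binds the substrate. Many members act in antiviral defence and several respond to interferon, while TRIM28 and its nearest relatives, which end in a PHD finger and a bromodomain, work on chromatin as transcriptional coregulators. The members described here are the genes named TRIM with a number on the primary chromosomes, with TRIM28 left out, in T24 bladder cancer cells in which TRIM28 had been silenced. The table of 78932 genes holds 66 of them, and 40 were tested because 3 or more of the 6 libraries held 10 or more counts of them.

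The T24 line was established from a human urothelial carcinoma and was grown here in medium with serum. Poly(A) RNA was sequenced from 3 cultures transfected with a control siRNA (siNC) and 3 transfected with siRNA against TRIM28 (siTRIM28). The labels call the replicates of each group biological, and all 6 libraries were treated here as 1 batch. The 2 groups shared the line, the medium and the transfection reagent. The study lists a pair of siRNAs against TRIM28, the labels do not say which was used, and the time between transfection and harvest is not given in the sources used here. All values come from 1 cell line, and nothing in the labels says how the cultures of a group were separated, so the p-values measure the spread between these libraries.

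TRIM28 itself fell as the labels imply. It had 1419, 1393 and 1382 counts in the siNC libraries and 130, 96 and 109 in the siTRIM28 libraries, and its log2 fold change was −3.54 with an adjusted p of 1.03e-10. Per length it lay first among the TRIM genes in siNC, at 24.1 ± 0.951 RPKM (SD, n = 3), and at place 25 of 41 in siTRIM28, at 2.06 ± 0.153 RPKM (SD, n = 3).

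The libraries held between 11712623 and 14018052 counts, so 10 counts stood for 0.712 to 0.842 CPM (counts per 1000000 of the TMM-scaled library). Within siNC, replicates 1 and 2 differed little more than sampling noise (chi-square per degree of freedom of 1.08) and replicate 3 stood apart from both (4.44 and 4.50), and within siTRIM28 replicates 2 and 3 were close (1.24) while replicate 1 stood apart (6.96 and 6.28). Of 4 keratins KRT7, KRT8 and KRT18 passed the count filter, and KRT7 (log2 fold change 0.56) and KRT8 (0.14) rose, with a summed level of 189 to 196 CPM in siNC and 207 to 214 CPM in siTRIM28. Of the mesenchymal genes VIM rose (0.33) and CDH2 (0.10) did not pass the test, with a sum of 1149 to 1175 CPM in siNC and 1391 to 1490 CPM in siTRIM28. Of the 7 markers of differentiated urothelium, UPK1A rose (1.94, adjusted p = 0.00055), FOXA1 and PPARG did not pass the test, and 4 (UPK1B, UPK2, UPK3A and GATA3) stayed under the filter, with a sum of 10.3 to 10.7 CPM in siNC and 12.3 to 13.3 CPM in siTRIM28. The part of these markers in the changes of the TRIM genes was not tested. Under the filter too were PTPRC and CD3E of the leukocyte markers and every endothelial and fibroblast marker examined. CD68, also expressed outside leukocytes, was at 348 ± 2.38 CPM in siNC and 351 ± 12.1 CPM in siTRIM28 (SD, n = 3 each).

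Of the 40 tested TRIM genes, 21 differed between siTRIM28 and siNC at an adjusted p under 0.05, that is 52.5% beside 41.8% of the 18474 genes tested. They divided into 12 that rose (background 21.3%) and 9 that fell (background 20.5%). A further threshold of 0.58 on the log2 scale left 9 members, 22.5% of those tested beside 17% of all genes, with 5 higher (background 9.51%) and 4 lower (background 7.51%). TRIM16, TRIM52, TRIM6, TRIM3 and TRIM36 made up the higher group, and TRIM5, TRIM65, TRIM27 and TRIM68 the lower group. In bulk RNA, fewer cells of a type and less RNA per cell cannot be told apart.

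The changes of the family lay on both sides of 0. Its median log2 fold change was 0.0031, beside 0.015 for all genes tested, and 20 members had a positive and 20 a negative value. Summed over all 66 members, tested or not, the level was 1095 ± 16.0 CPM in siNC and 1112 ± 9.76 CPM in siTRIM28 (SD, n = 3 each). The exact two-sided permutation p of this sum was 0.3, where 0.1 is the smallest p that 3 against 3 libraries allow. In 28 of the 40 tested members (70%) the 2 groups did not overlap, 14 in each direction, beside 52% of all genes. Without siNC replicate 3 the count of changed members was 20, beside 6526 of all genes (7723 with all libraries). Without siTRIM28 replicate 1 it was 22, beside 8130 of all genes. With the close pairs of libraries summed it was 20, beside 5935 of all genes.

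**Figure D1:**
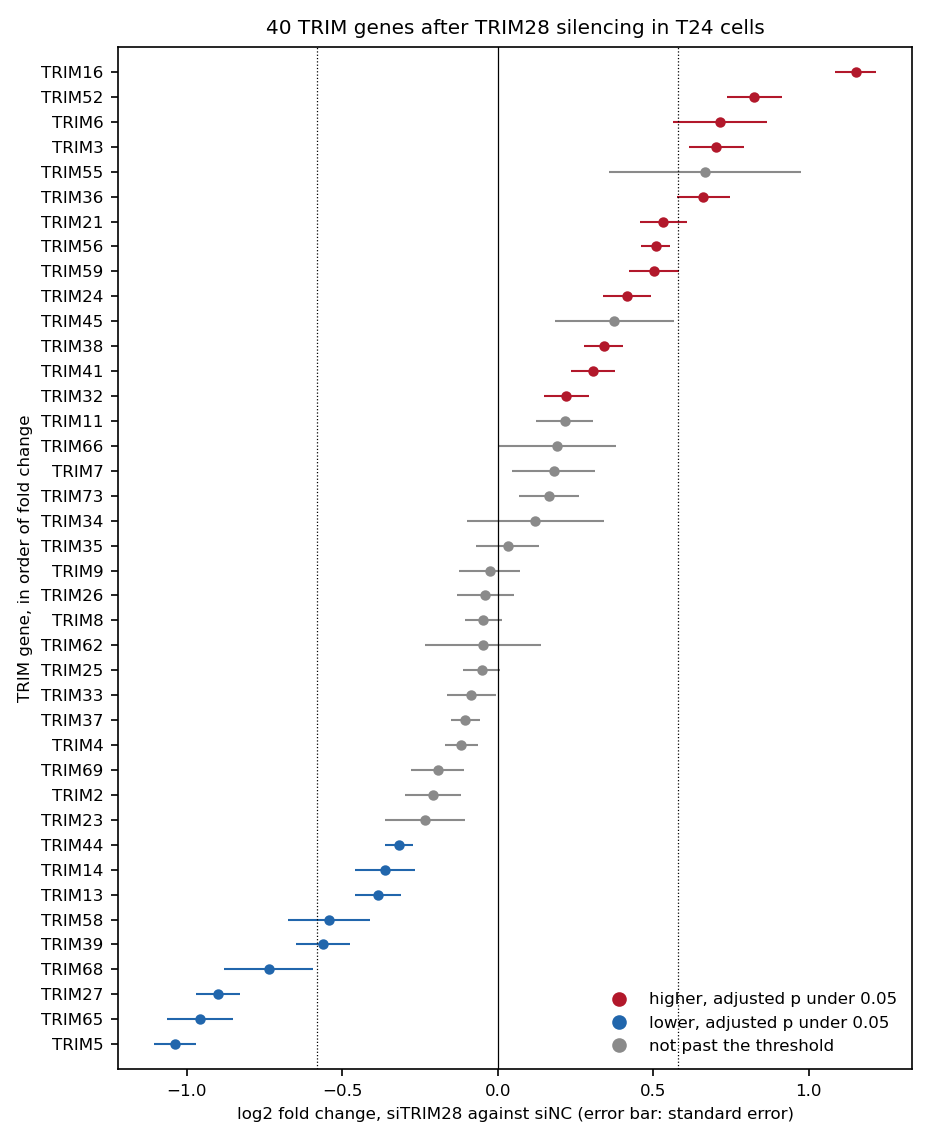
Log2 fold change (siTRIM28 against siNC, x axis) of the 40 tested TRIM genes in order of their value (y axis), with points for the edgeR estimate and bars for its standard error; dotted lines mark 0.58 in each direction. The 12 members that rose reach up to TRIM16 at 1.15, the 9 that fell lie at the bottom with TRIM5 at −1.04, and TRIM55 (0.67) and TRIM45 (0.38) lie among the members that rose with wide bars and no call.

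Levels can be compared between genes only per length (RPKM, counts per kilobase of gene model after scaling to library size). In siNC cells the most abundant members were TRIM37, a ligase with a MATH domain that acts at centrosomes, at 19.4 ± 0.376 RPKM (SD, n = 3), TRIM44, which lacks a RING finger, at 16.3 ± 0.515 RPKM, and TRIM4 at 12.8 ± 0.310 RPKM. The ranges of these 3 over the siNC libraries did not overlap. They were followed by TRIM21 at 8.91 ± 0.652 RPKM, TRIM5 at 8.41 ± 0.138 RPKM and TRIM56 at 8.24 ± 0.350 RPKM, whose neighbouring ranges overlapped. Over the whole order, 25 of 39 pairs of neighbours overlapped. The lowest tested members were TRIM55 at 0.283 ± 0.0648 RPKM and TRIM66 at 0.23 ± 0.0264 RPKM. On the CPM scale TRIM44 and TRIM37 together held 29.2% of the siNC level summed over all 66 members.

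Between the groups the order per length changed mostly in its middle. TRIM37 and TRIM44 held places 1 and 2 in both. TRIM5 went from place 5 to place 11, TRIM27 from 10 to 18 and TRIM65 from 19 to 27, while TRIM16 went from 14 to 7 and TRIM3 from 26 to 19.

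**Figure D2:**
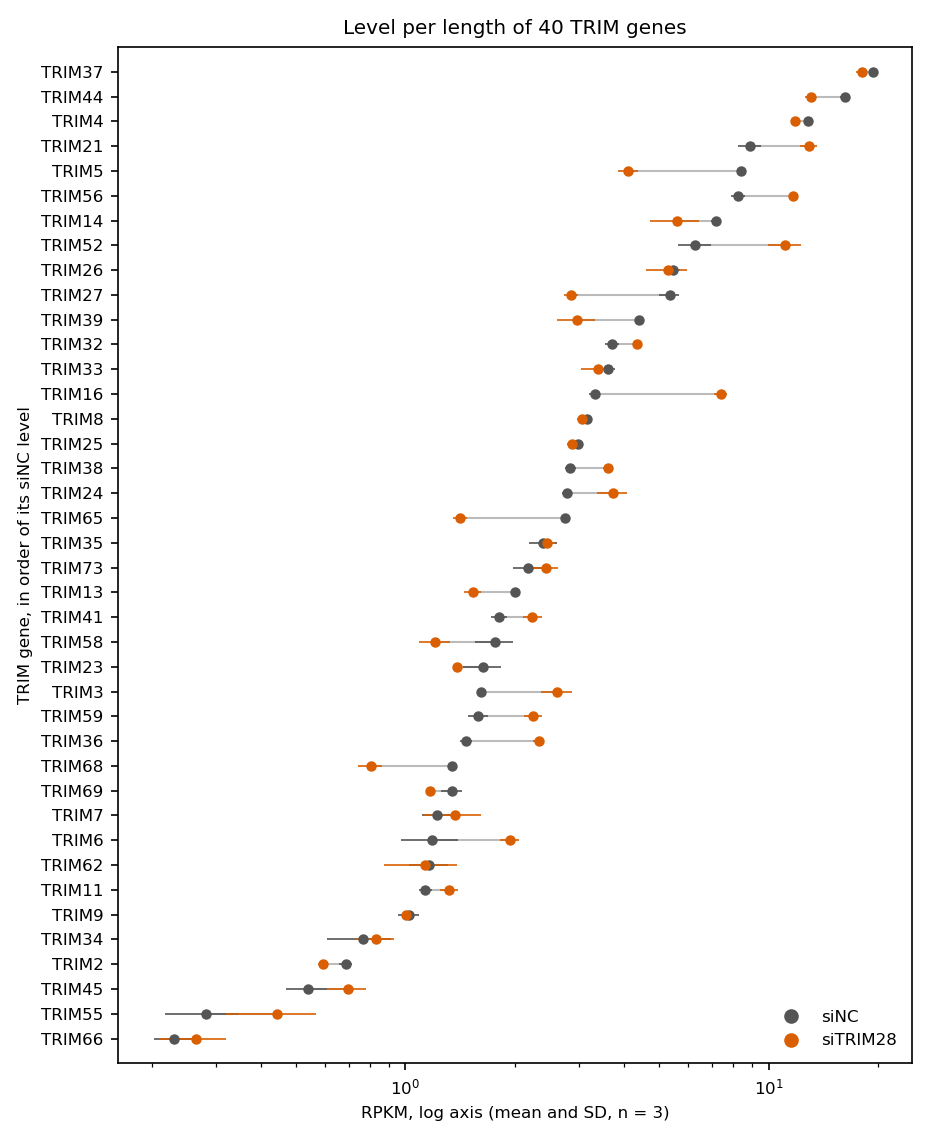
Level of the 40 tested TRIM genes in RPKM (log axis), mean with SD over 3 libraries in siNC (grey) and siTRIM28 (orange), in order of the siNC level. TRIM37 and TRIM44 stay at the top, and the longest gaps between the groups are those of TRIM5, TRIM27, TRIM65, TRIM16 and TRIM52.

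Of TRIM24, TRIM33 and TRIM66, the relatives that share the PHD finger and bromodomain of TRIM28, only TRIM24 passed the test. TRIM24, a coregulator of nuclear receptors (ENSG00000122779, chr7:138460259-138589996 on GRCh38), was at 25.1, 26.3 and 26.3 CPM in siNC replicates 1 to 3 and at 31.6, 34.0 and 38.2 CPM in siTRIM28 replicates 1 to 3. Every siTRIM28 library lay above every siNC library, and the log2 fold change was 0.42 with a standard error of 0.077 and an adjusted p of 0.00106.

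TRIM33, a ligase that acts on SMAD4 in TGF-beta signalling (ENSG00000197323, chr1:114392790-114511203), was at 32.8, 35.3 and 35.8 CPM in siNC and at 31.5, 36.4 and 29.98 CPM in siTRIM28. The groups overlapped, with siTRIM28 replicate 2 the highest library of all 6 and replicate 3 the lowest (log2 fold change −0.09, standard error 0.079, adjusted p = 0.417). TRIM66 (ENSG00000166436, chr11:8612037-8682670), the member known mostly from testis, was low, at 4.25, 3.39 and 3.68 CPM in siNC and 3.36, 4.56 and 5.15 CPM in siTRIM28. Its groups overlapped too (log2 fold change 0.19, standard error 0.189, adjusted p = 0.449), and the value ranged from 0.046 to 0.36 when each library was left out in turn. A difference between TRIM24 and the other two relatives was not tested.

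TRIM5 showed the largest fall of the 40 tested members. It encodes a restriction factor that binds the capsids of incoming retroviruses (ENSG00000132256, chr11:5663195-5938619, minus strand). It was at 44.1, 45.2 and 45.6 CPM in siNC and at 20.4, 22.97 and 22.5 CPM in siTRIM28, so siTRIM28 libraries kept 48.7% of the siNC level. The libraries of each group lay close together with a wide gap between the groups (log2 fold change −1.04, standard error 0.066, adjusted p = 3.03e-07).

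TRIM65, a ligase that acts on the RNA sensor MDA5 (ENSG00000141569, chr17:75880335-75896640), was at 10.5, 10.9 and 10.7 CPM in siNC and at 5.71, 5.24 and 5.57 CPM in siTRIM28. It kept 51.5% of its siNC level (log2 fold change −0.96, standard error 0.106, adjusted p = 2.38e-05). TRIM27, a ligase first found as a fusion partner of RET (ENSG00000204713, chr6:28903002-28923985), was at 39.8, 45.1 and 43.0 CPM in siNC and at 21.7, 23.3 and 23.6 CPM in siTRIM28. It kept 53.6% (log2 fold change −0.90, standard error 0.070, adjusted p = 1.49e-06), and no library of one group reached the other.

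TRIM68 (ENSG00000167333, chr11:4598672-4608138), a ligase with a PRY-SPRY end, was at 5.76, 5.63 and 5.72 CPM in siNC and at 3.64, 3.46 and 3.12 CPM in siTRIM28. Among the 4 members that fell past 0.58 it had the lowest CPM and the smallest fall (log2 fold change −0.74, standard error 0.144, adjusted p = 0.00152).

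TRIM16 showed the largest rise of the 40. It encodes a protein without a RING finger that takes part in the clearance of damaged lysosomes (ENSG00000221926, chr17:15627960-15684275). It was at 18.5, 18.3 and 19.4 CPM in siNC and at 39.8, 41.7 and 43.4 CPM in siTRIM28, which is 2.22 times the siNC level (log2 fold change 1.15, standard error 0.066, adjusted p = 1.27e-07). The gene lies over ENSG00000251537 on the same strand, which rose by 1.30 on the log2 scale, and over ENSG00000266261 on the opposite strand, which rose by 1.41. TRIM16L, a close copy of TRIM16 with 2 rows in the table, rose by 1.20 and 1.35. Reads that fit more than 1 of these genes cannot be placed with confidence, so the rise belongs to this group of rows and its split between them is uncertain.

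TRIM52 (ENSG00000183718, chr5:181254077-181261150), which has an unusually acidic RING finger and no substrate-binding end, was at 44.9, 45.2 and 37.4 CPM in siNC and at 84.2, 71.5 and 70.2 CPM in siTRIM28. The 2 libraries that stood apart over all genes were also its lowest siNC and its highest siTRIM28 library, and the groups did not overlap (log2 fold change 0.82, standard error 0.089, adjusted p = 1.89e-05). Without siNC replicate 3 the value was 0.74, and without siTRIM28 replicate 1 it was also 0.74. Its antisense gene TRIM52-AS1, which covers the whole gene on the other strand, rose by 0.34.

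TRIM6, whose product makes free ubiquitin chains in interferon signalling (ENSG00000121236, chr11:5596109-5612958), was low, at 3.74, 5.34 and 5.02 CPM in siNC and 8.07, 7.18 and 7.85 CPM in siTRIM28. The groups did not overlap, but siNC replicate 1 lay well under the other siNC libraries. The log2 fold change was 0.71 with all libraries (standard error 0.151, adjusted p = 0.00257) and 0.56 without that one. TRIM6 overlaps the readthrough gene TRIM6-TRIM34 on the same strand, which rose by 0.48.

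TRIM3, an NHL-repeat ligase best known from neurons (ENSG00000110171, chr11:6448613-6474459), was at 11.1, 10.7 and 10.7 CPM in siNC and at 19.6, 16.6 and 16.5 CPM in siTRIM28. The replicate of siTRIM28 that stood apart was the highest (log2 fold change 0.70, standard error 0.088, adjusted p = 6.18e-05), and without it the value was 0.61. TRIM36, which binds microtubules through a COS box (ENSG00000152503, chr5:115124762-115180546), was at 9.29, 8.60 and 8.86 CPM in siNC and at 13.6, 14.4 and 14.4 CPM in siTRIM28. Its libraries were tight in both groups (log2 fold change 0.66, standard error 0.084, adjusted p = 7.21e-05). For each of these 9 genes and for TRIM24 the exact two-sided permutation p was 0.1, the smallest possible, and for TRIM33 and TRIM66 it was 0.4 and 0.5.

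**Figure D3:**
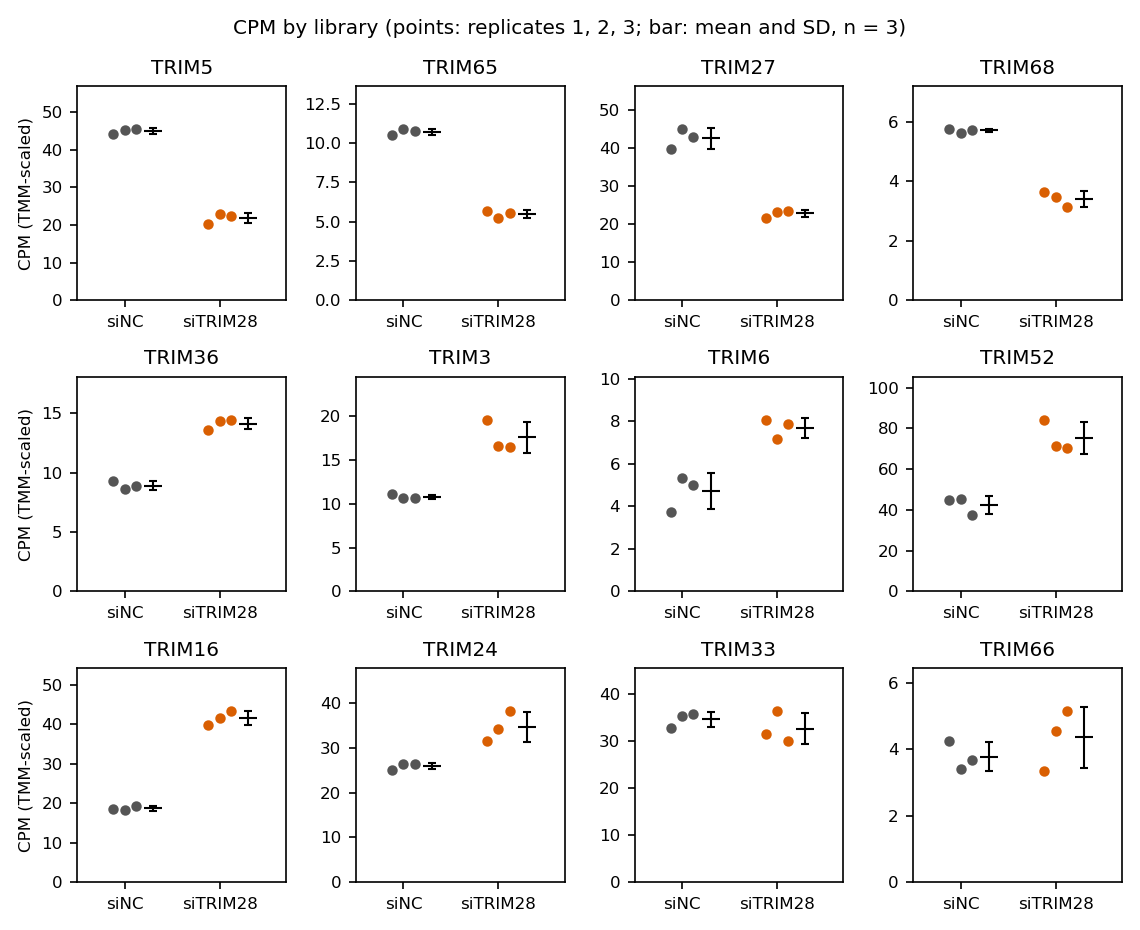
CPM of the 9 TRIM genes that passed both thresholds and of TRIM24, TRIM33 and TRIM66 in each library (points, replicates 1 to 3 from left to right), with mean and SD of 3 libraries beside them; each y axis starts at 0 and has its own scale. In the 9 genes and in TRIM24 no siTRIM28 library reaches the siNC range, while TRIM33 and TRIM66 overlap.

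A chosen list of 10 members that respond to interferon or act against viruses moved in both directions. The list is not complete, since TRIM65 and TRIM6, described above with roles in such signalling, were classed by their end. Of the 9 listed members that were tested, 3 rose (TRIM21, TRIM56 and TRIM38), 2 fell (TRIM5 and TRIM14) and 4 did not pass the test. Over all genes 21.3% rose and 20.5% fell. The median log2 fold change of these 9 was −0.04 beside 0.015 for all genes. TRIM21, the cytosolic antibody receptor, was at 17.2 ± 1.26 CPM in siNC and 25.0 ± 1.40 CPM in siTRIM28 (SD, n = 3 each; log2 fold change 0.53, adjusted p = 0.000171). TRIM56, which acts in the cGAS-STING pathway and had the most CPM of these genes, was at 91.7 ± 3.90 CPM in siNC and 130.4 ± 1.46 CPM in siTRIM28 (log2 fold change 0.51, adjusted p = 5.94e-06). TRIM38, known as a brake on innate signalling, rose by 0.34. TRIM14, an adaptor of the MAVS pathway, fell from 39.3 ± 1.18 CPM in siNC to 30.6 ± 4.74 CPM in siTRIM28 (log2 fold change −0.36, adjusted p = 0.0104), with siTRIM28 replicate 1 the lowest at 25.2 CPM. Without that library its log2 fold change was −0.24.

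TRIM25, the ligase of the RIG-I pathway, was at 37.1 ± 0.551 CPM in siNC and 35.8 ± 1.21 CPM in siTRIM28 and did not pass the test (log2 fold change −0.05). TRIM26 at −0.04, TRIM34 at 0.12 and TRIM69 at −0.19 did not pass either. TRIM34 lies wholly within the readthrough gene TRIM6-TRIM34 on the same strand, which held 529 counts and rose by 0.48. Reads that fit both genes cannot be placed with confidence, so the level and test of TRIM34 are uncertain. TRIM22, a well-known interferon target, stayed under the count filter with at most 7 counts in a library.

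The promoters of these genes were searched on either strand for GAAA followed after any 2 bases by GAAA, a spacing found in interferon-stimulated response elements. RefSeq promoters (GRCh38.p14, 250 bases before and 50 after the start) matched 53 of the 66 members by symbol, 31 of them tested. The motif was in 9 of the 53 (17%), all 9 of them tested, and in 3.57% of all 35116 promoters. Of the 9, TRIM21 and TRIM16 rose, TRIM5, TRIM14 and TRIM44 fell, and TRIM2, TRIM26, TRIM34 and TRIM69 did not pass the test. Over all genes tested 21.3% rose and 20.5% fell, and the shares among all genes with the motif were not computed. The promoters of TRIM21 and TRIM5 are shown because both genes belong to the interferon-related group and moved opposite ways, with the motif (overlapping copies in TRIM21) in capitals. In TRIM21 (chr11:4393653-4393952, minus strand) it starts at base 18 after the start, and in TRIM5 (chr11:5685025-5685324, minus strand) 27 bases before it and on the other strand.
TRIM21: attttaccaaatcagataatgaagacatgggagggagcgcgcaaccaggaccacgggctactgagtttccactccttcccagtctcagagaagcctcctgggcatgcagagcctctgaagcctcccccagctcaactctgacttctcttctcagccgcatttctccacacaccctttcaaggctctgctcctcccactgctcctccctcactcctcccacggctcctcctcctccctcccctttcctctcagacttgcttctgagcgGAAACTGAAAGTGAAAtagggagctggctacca
TRIM5: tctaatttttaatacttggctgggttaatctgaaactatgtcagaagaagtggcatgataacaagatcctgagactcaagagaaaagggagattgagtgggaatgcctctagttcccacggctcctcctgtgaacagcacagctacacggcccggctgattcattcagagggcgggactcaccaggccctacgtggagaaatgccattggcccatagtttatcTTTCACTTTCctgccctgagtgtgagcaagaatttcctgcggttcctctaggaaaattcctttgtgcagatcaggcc

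Of the 27 remaining members with a PRY-SPRY end 13 were tested, of which 3 rose (TRIM16, TRIM6 and TRIM41), 5 fell (TRIM65, TRIM27, TRIM68, TRIM39 and TRIM58) and 5 did not pass the test, beside 21.3% of all genes higher and 20.5% lower. Their median log2 fold change was −0.05. TRIM39 was at 18.6 ± 0.243 CPM in siNC and 12.6 ± 1.50 CPM in siTRIM28 (log2 fold change −0.56, adjusted p = 0.000309). It overlaps the readthrough gene TRIM39-RPP21 on the same strand, which had a log2 fold change of −0.28 and did not pass the test. TRIM58, known from red cell precursors, fell from 9.14 ± 1.10 CPM in siNC to 6.25 ± 0.610 CPM in siTRIM28 (log2 fold change −0.54, adjusted p = 0.00606). TRIM41 rose by 0.31 on the log2 scale. TRIM4 (−0.12), TRIM62 (−0.05), TRIM35 (0.03), TRIM7 (0.18) and TRIM11 (0.22) did not pass.

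Among the NHL-repeat ligases TRIM3 rose, and TRIM2 had a log2 fold change of −0.21 with an adjusted p of 0.0871. TRIM2, with 811 counts in all, overlaps ENSG00000288637 on the same strand over 186877 bases. That gene held 3812 counts and did not pass the test (log2 fold change −0.12), so the level and test of TRIM2 are uncertain. TRIM32, a gene of limb-girdle muscular dystrophy, passed narrowly, from 14.03 ± 0.611 CPM in siNC to 16.4 ± 0.423 CPM in siTRIM28 (log2 fold change 0.22, adjusted p = 0.0277). Its call was lost under 9 of 16 alternatives, among them DESeq2 (adjusted p = 0.220) and each siNC library left out. ASTN2 covers TRIM32 on the other strand with 122 counts in all.

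Among the COS box genes only TRIM36 passed. TRIM9, a neuronal ligase, was at −0.03, and TRIM55, a sarcomere protein near the filter with 11, 10 and 14 counts in siNC and 22, 11 and 19 in siTRIM28, at 0.67 with a standard error of 0.309. Both members that sit in the endoplasmic reticulum membrane changed, in opposite directions. TRIM59 rose from 12.4 ± 0.763 CPM in siNC to 17.6 ± 1.01 CPM in siTRIM28 (log2 fold change 0.50, adjusted p = 0.000366), and TRIM13 fell from 16.2 ± 0.367 CPM in siNC to 12.4 ± 0.678 CPM in siTRIM28 (log2 fold change −0.38, adjusted p = 0.00153). TRIM59 overlaps SMC4 on the other strand, which rose by 0.45 and held 65980 counts in all. It also overlaps the gene TRIM59-IFT80 on the same strand, which held 2123 counts and did not pass the test (log2 fold change −0.07, adjusted p = 0.383).

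TRIM37, TRIM23 with its ARF domain (−0.23) and TRIM45 with a filamin repeat (0.38) were each classed alone by their end, and none of these 3 passed the test. TRIM37 was at −0.10 with non-overlapping groups. Of the 4 tested members without a classed end, TRIM52 rose and TRIM44 fell, from 213 ± 6.75 CPM in siNC to 171 ± 6.31 CPM in siTRIM28 (log2 fold change −0.32, adjusted p = 0.000147), while TRIM8 (−0.05) and TRIM73 (0.16) did not pass. On the CPM scale this was the largest difference of the 40 members. Over all 19 tested members that did not pass, log2 fold changes ran from −0.23 to 0.67, and in 7 (36.8%) the groups did not overlap, beside 18.8% of all genes that did not pass.

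The members that fell most shared a short sequence in their 3′ UTR. The heptamer TCCTGTC lies in the 3′ UTR of TRIM28. It pairs with bases 2 to 8 of the guide strand of 1 siRNA of the pair that the study lists against TRIM28. It was searched after the results had been seen, in the longest annotated 3′ UTR of each gene (GENCODE release 29, GRCh38), which may not be the one that T24 cells use. The heptamer that pairs with the other siRNA of the pair was not searched. The 4 members that fell past 0.58 each held 1 match, and none of the 5 that rose past 0.58 did. The matches are shown with 10 bases on each side, the heptamer in capitals, as the sites by which these 4 genes resemble the TRIM28 transcript. They lie at chr19:58550587-58550613 (plus strand) for TRIM28, and on the minus strand at chr11:5664283-5664309 for TRIM5, chr17:75890289-75890315 for TRIM65, chr6:28903977-28904003 for TRIM27 and chr11:4598923-4598949 for TRIM68.
TRIM28: ctgttctctgTCCTGTCaccccatccc
TRIM5: tcagttcaacTCCTGTCtctccatata
TRIM65: gagacgtccgTCCTGTCttgtagtctt
TRIM27: ccttgccacgTCCTGTCacagctgggt
TRIM68: catgatttgtTCCTGTCtgaggcatag

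Over the tested family, 12 of 40 members (30%) held the heptamer, beside 17.8% of the 12325 tested genes that have an annotated 3′ UTR of at least 30 bases with TRIM28 left out. The median 3′ UTR was 1745.5 bases long in the family and 1380 bases in all genes. By direction, 5 of the 9 members that fell held it (55.6%, TRIM13 being the fifth), 1 of the 12 that rose (TRIM38, 8.33%) and 6 of the 19 that did not pass the test (31.6%, TRIM25, TRIM8, TRIM35, TRIM7, TRIM66 and TRIM45). Over all genes the shares were 28.8% of those that fell, 12% of those that rose and 14.7% of those that did not pass, and 42.8% of those that fell past 0.58 beside 13.3% of those that rose past it. The median log2 fold change of all genes was −0.17 with a match and 0.0043 without one.

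Read the other way, 5 of the 12 members with the heptamer fell and 4 of the 28 without it (TRIM39, TRIM58, TRIM14 and TRIM44). Over all genes 934 of 2195 with a match fell and 2311 of 10130 without one. The part of this sequence in the falls was not tested, and with 1 kind of silencing per group the loss of TRIM28 and an effect of the siRNA sequence on other transcripts cannot be told apart.

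TRIM genes often lie side by side, and neighbours did not always share a direction. Chromosome 11 holds 15 of the 66 members. On its short arm TRIM21 rose while TRIM68 fell, less than 500000 bases apart. Further along, TRIM6 rose, TRIM34 did not pass the test and TRIM5 fell, with the silent TRIM22 inside the span of TRIM5. An antisense gene there, ENSG00000239920, lies over TRIM6 and TRIM34 on the other strand and over TRIM5 on the same strand, and fell by 0.50 on the log2 scale. At the end of the long arm of chromosome 5, TRIM41 and TRIM52 rose and TRIM7 lay at 0.18. On chromosome 17 TRIM65 fell beside TRIM47, which had at most 9 counts. In the MHC region of chromosome 6, TRIM39 fell and TRIM26 did not pass the test, while TRIM31, TRIM40, TRIM10 and TRIM15 had at most 1 count. In all, 21 tested members overlap another tested gene, 18 of them with one on the opposite strand, and no source used here says if strand entered the counting.

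The other 26 members were silent or nearly so. No library held a counted read of TRIM10, TRIM31, TRIM42, TRIM51, TRIM60, TRIM61, TRIM64, TRIM71, TRIM75 or TRIM77, 10 genes in all, and a count of 0 allows up to 3 counts, or 0.214 to 0.253 CPM, for counting error only. TRIM71 is the stem cell factor LIN41. These genes were at 0 in siTRIM28 as in siNC, so no read was counted for them at this depth after silencing.

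At most 1 count was seen for TRIM15, TRIM29, TRIM40, TRIM49, TRIM54 and TRIM72, at most 2 for TRIM43, TRIM63 and TRIM67, 3 for TRIM48, 4 for TRIM50, 7 for TRIM22, 8 for TRIM46 and 9 for TRIM47. TRIM54 and TRIM63, ligases of the muscle sarcomere, and TRIM72, a membrane repair factor of muscle, are among them, as is TRIM29, a gene of squamous epithelium. Just outside the filter lay TRIM74, with 7, 7 and 3 counts in siNC and 15, 11 and 3 in siTRIM28, and TRIM17, with 2, 7 and 5 counts in siNC and 10, 5 and 6 in siTRIM28. Just inside it lay TRIM55, given above. Next lowest in counts among the tested members was TRIM34, with 25, 25 and 32 counts in siNC and 27, 29 and 27 in siTRIM28. TRIM74 and TRIM73 are near-identical copies, so their reads cannot be split with confidence.

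Family proteins that carry other names, chosen with earlier results known, were also examined. Of 10 rows 7 were tested, of which 4 rose, 2 of them the rows of TRIM16L, and 1 fell (21.3% and 20.5% of all genes). MID2, a microtubule-binding ligase, fell by 1.06 on the log2 scale (adjusted p = 9.66e-05), and its 3′ UTR of 120 bases held 0 matches to the heptamer. The median 3′ UTR over all genes was 1380 bases long, so a search of 120 bases says little. TRIML2 rose by 1.30, both rows of TRIM16L rose as given above, and RNF207, a cardiac ligase, rose by 0.62 (adjusted p = 0.0434). MID1 at −0.13 and PML at 0.10 did not pass the test, and MEFV, BSPRY and TRIML1 stayed under the count filter.

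The ubiquitin-conjugating enzymes and cofactors that RING ligases use are the partners of the family. Of 12 genes 1 rose (UBE2W, by 0.40), 5 fell and 6 did not pass the test, beside 21.3% of all genes higher and 20.5% lower. Their median log2 fold change was −0.16, beside 0.015 for all genes. UBE2D2 fell from 52.1 ± 2.84 CPM in siNC to 20.6 ± 0.622 CPM in siTRIM28 (log2 fold change −1.34), and UBE2V1, the cofactor of UBE2N, from 317 ± 13.4 CPM in siNC to 155 ± 35.6 CPM in siTRIM28 (log2 fold change −1.03). The 3′ UTR of UBE2V1 held the heptamer at 2 places, that of UBE2E3, which did not pass the test (−0.11), held 1 match, and that of UBE2D2 held none. UBE2D4 (−0.57), UBE2N (−0.53) and UBE2D1 (−0.43) fell by less.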

How the data were processed

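The deposited file holds unnormalized read counts by gene for 3 siNC and 3 siTRIM28 libraries of T24 cells, with gene positions on GRCh38. The submitters' processing notes name fastp 0.23.1, STAR 2.7.6a and featureCounts. The kit marks strand, and the strand setting of the counting and the annotation release are not given in the sources used here. A deposited table of RPKM values of the authors' differentially expressed genes was not used.

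The 18474 genes with 10 or more counts in 3 or more of the 6 libraries entered edgeR 4.0.16 in R 4.3.3 (TMM scaling, quasi-likelihood test, group as the only term, Benjamini-Hochberg over all of them, threshold 0.05). Standard errors were obtained by dividing the size of the log2 fold change by √F. The 0.58 threshold is the one the methods give for patient cohorts. RPKM was computed here from TMM-scaled CPM and the deposited gene lengths. The common biological coefficient of variation was 0.0733. Single members were also tested by exact permutation of log2 CPM (prior count 2). In data simulated on this comparison, edgeR recovered 194 of 200 genes given a log2 change of 0.8 among 18474, with 9 false calls. The changed genes were drawn only from those with higher mean counts. The simulated libraries were independent, without the close pairs of the real ones. Smaller changes and members with few counts were therefore not covered by this check.

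The members and lists were chosen with earlier results of these data known. Every member is named; those past both thresholds and the 3 relatives of TRIM28 with all 6 values, the others with a fold change or highest count. The heptamer and promoter searches were added after the values were seen. Alternatives were scaling by RLE, by the upper quartile or by the total, DESeq2 1.42.0, limma-voom (limma 3.58.1), 2 other count filters, the replicate block, each library left out, close pairs of libraries summed, and an adjusted p under 0.01. Figures were made with Python 3.11.15 and matplotlib 3.10.9.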

Additional observations from a re-analysis of the deposited data

How the results depend on the processing

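Across 16 alternatives the number of changed TRIM genes lay between 19 and 22, with 11 to 13 higher, 8 or 9 lower and 9 to 11 past 0.58, while 5393 to 8130 genes were called over the whole table (7723 as reported). Of the 21 changed members 19 were called under every alternative, and no changed member changed sign. With the close pairs of libraries summed, the edgeR adjusted p of each of the 9 members past both thresholds was larger than the one given above. It then lay between 8.96e-05 (TRIM16) and 0.0117 (TRIM68). TRIM32 was lost under 9 alternatives and TRIM14 at a threshold of 0.01. Without siTRIM28 replicate 1 TRIM11 was gained, and without siTRIM28 replicate 2 TRIM55 was. The family's median log2 fold change, 0.0031 as reported, was 0.037 with upper-quartile scaling and 0.048 with no count filter, where more members enter, and lay between −0.012 and 0.041 when each library was left out. Upper-quartile scaling moved the median of all genes to 0.049. With the replicate number as a block, 20 members and 7910 genes were called, and TRIM32 had an adjusted p of 0.0516. Same-numbered libraries did not deviate together (correlations 0.052, −0.012 and 0.037), so the numbers were not taken as pairs. No library was tested for outlying values, since 3 libraries a group are too few. Depth limits what can be said of the members near or under 10 counts.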
